A study of Mus musculus with 24 samples.

Results

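Unirradiated spleen of B10.BR mice was compared with unirradiated spleen of BALB.K mice, which asks how the 2 strains differ at rest, before any radiation reaches them. The comparison was made on 6 of the 24 arrays of the series, chosen by their labels: 3 arrays of B10.BR at 0 cGy and 3 arrays of BALB.K at 0 cGy. Each array held Cy3-labelled RNA of spleen cells pooled from 3 resting mice, so that the spread between arrays is that between pools. The age and sex of the mice are not given in the sources used here. The other arrays came from mice of both strains 24 hours after total body irradiation. They entered the estimate of the spread, and those at 300 cGy, the one radiation dose used in both strains, are set beside the unirradiated ones at the end.

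B10.BR and BALB.K are congenic inbred strains. Both carry the H2k haplotype of the major histocompatibility complex, B10.BR on the C57BL/10 background and BALB.K on the BALB/c background, so that grafts between them are matched at this complex and differ at minor histocompatibility loci. The mouse spleen filters blood, holds B cells, T cells, natural killer cells, macrophages and dendritic cells, and keeps making red cells in adult life. The array probes are 60 bases long and follow the reference genome, which stems from C57BL/6, a close relative of C57BL/10. The sequences of these strains under the probes were not used here. A difference in RNA level and a difference in how well RNA of a strain binds a probe therefore cannot be told apart in any value below.

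The tissue label was checked on markers. All 27 B cell genes and all 28 T cell genes of the marker lists were well above background on all 6 arrays. Tlx1, the transcription factor without which no spleen forms, lay at 1.15, 0.91 and 0.72 in B10.BR and at 1.26, 1.71 and 1.56 in BALB.K. A level is given in log2 units relative to the 75th percentile of the signal of its array, and a strain difference is the B10.BR mean minus the BALB.K mean ± its standard error in limma (n = 3 arrays per strain). Of the 55681 probes 68.5% to 73.5% were well above background on an array, and the 75th percentile was 700.1 to 818.9 intensity units. Precision is limited by having 3 arrays per strain. The B10.BR arrays correlated with each other at 0.993 to 0.995 over the tested genes, the BALB.K arrays at 0.971 to 0.989, and arrays of different strains at 0.934 to 0.963. All 3 B10.BR arrays lay on one slide and all 3 BALB.K arrays on another, so that slide and strain cannot be told apart among them. The Y-linked gene Ddx3y gave signal on every B10.BR array and on replicate 1 of BALB.K, but stayed at background on replicates 2 and 3 of BALB.K. Xist, the RNA of the inactive X chromosome, lay at -6.57, -4.83 and -4.99 in B10.BR and at -5.40 on replicate 1 of BALB.K, against -2.13 and -2.04 on replicates 2 and 3 of BALB.K. The sex of the mice and the strain therefore cannot be fully told apart, and genes of the sex chromosomes were left out of all counts. With Y-linked signal as a covariate 12319 autosomal genes passed the strain test, and with replicate 1 as the only BALB.K array 9807 did. Replicate 2 of BALB.K lay more than 2 log2 units below both other BALB.K arrays, themselves within 0.5 of each other, in 434 genes, 174 of which differed between the strains in the test, against 5 to 33 genes for each of the other arrays.

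In all, 26129 autosomal genes were tested, and 14574 of them (55.8%) differed between the strains at an adjusted p under 0.05. With slide as a fixed block, estimated for the slides compared here from the B10.BR 500 cGy group alone, 5523 genes (21.1%) did. Of the 14574 6418 (24.6% of the tested genes) were higher in B10.BR and 8156 (31.2%) were higher in BALB.K. A difference of at least 2-fold that also passed the test was found in 5204 genes (19.9%), with 1690 (6.47%) higher in B10.BR and 3514 (13.4%) higher in BALB.K. At 4-fold or more there were 508 and 727 genes, and at 8-fold or more 160 and 149. The arrays of the strains did not overlap in 60.5% of the tested genes. Since so many genes passed, the counts of gene groups below are read against these shares.

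The direction of small differences depended on the scaling of the arrays. The median difference of all genes was -0.067, and it was 0.25 when arrays were scaled to their medians and -0.75 when they were scaled on the spike-in probes. Of the genes that passed, 44.0% were higher in B10.BR, against 70.6% with median scaling and 6.0% with spike-in scaling. A scaling factor moves all genes of an array alike, so that the place of a gene group relative to the median of all genes is kept. The tilt toward BALB.K was found among dim genes: among the 5226 dimmest genes the median was -0.43, with 394 genes at least 2-fold higher in B10.BR and 1279 higher in BALB.K. Among the 5226 brightest genes the median was 0.13, with 225 and 150 genes. Regions of long intergenic noncoding RNA, which make up 3638 of the tested features, differed at least 2-fold in 30.0%, 213 higher in B10.BR and 880 in BALB.K. Among the 17828 genes with a RefSeq symbol 55% passed the test and 16.3% did so at 2-fold or more.

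A further set of genes gave signal in one strain only. On all 3 B10.BR arrays and on no BALB.K array, 250 genes were well above background, and 234 were so on all 3 BALB.K arrays and on no B10.BR array. For these a fold is given as a bound, computed with each dim array set no lower than its faintest signal that counted as above background. The bound lay above no difference in 233 of the 250 genes and in all 234, and only these are counted further. Most of their bounds were small, with a median of at least 1.70-fold in the first set and 2.39-fold in the second. In 48 and 37 of these genes the bound was 4-fold or more. The probes of the leading genes on each side are shown here as the files give them, 5′ to 3′, because each gave signal in one strain and stayed at background in the other.
Trim12a, chr7:111448499-111448558, minus strand (mm9): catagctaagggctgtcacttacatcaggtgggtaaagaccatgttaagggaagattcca
H2-T3, chr17:36322516-36322575, minus strand (mm9): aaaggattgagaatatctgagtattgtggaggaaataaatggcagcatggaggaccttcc
Ifi202b, chr1:175892789-175892848, minus strand (mm9): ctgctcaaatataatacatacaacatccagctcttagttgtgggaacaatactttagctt

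Trim12a, a member of the tripartite motif family that holds several antiviral factors, had levels of 5.38, 5.37 and 5.56 in B10.BR and of -6.61, -7.76 and -7.22 in BALB.K. It was at least 2379-fold higher in B10.BR, and its second probe, also with signal in B10.BR only, was at least 201-fold higher. Its neighbour on chromosome 7, Trim5, a mouse relative of the primate retrovirus restriction factor, lay at 0.37, 0.26 and 0.28 in B10.BR against -7.97, -7.76 and -8.08 in BALB.K, at least 67.8-fold higher. 5830417I10Rik on chromosome 3 was at 3.18, 3.16 and 3.32 in B10.BR and at -8.22, -7.25 and -8.33 in BALB.K, at least 512-fold higher. In these 3 genes the B10.BR arrays lay close together and all BALB.K arrays were at background.

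Vps16, a core subunit of the complexes that tether vesicles to late endosomes and lysosomes, was measured above background in both strains. Its levels were 4.70, 4.81 and 4.86 in B10.BR and -4.40, -4.63 and -4.86 in BALB.K, a difference of 9.42 ± 0.14 from its only tested probe. Il4ra, the receptor chain shared by interleukin-4 and interleukin-13, stood at 1.03, 1.01 and 1.10 in B10.BR and at -3.74, -3.90 and -3.77 in BALB.K (4.85 ± 0.21). Its second probe gave -2.09, -2.17 and -2.03 in B10.BR and -2.46, -2.42 and -2.47 in BALB.K, a difference of 0.35 that did not pass (adjusted p = 0.0501). The probes of Il4ra thus gave a large and a small difference for the same gene. Cd22, a sialic acid binding inhibitory receptor of B cells, showed the same: 2.83, 2.93 and 2.84 in B10.BR against 0.12, -0.26 and -0.19 in BALB.K at one probe (2.98 ± 0.17), and a difference of -0.22 that did not pass at the other. Other large differences in this direction were of Gm8909 (6.83), Pnp2 (6.67), Gm4718 (at least 19.7-fold), Gm4956 (6.08), Eps8l1 (5.89), Apol7c (at least 31.4-fold) and Skint3 (5.68). Pnp2 is a purine nucleoside phosphorylase, and Skint3 belongs to a butyrophilin-like family of skin and thymus.

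Ifi202b led the genes higher in BALB.K. This member of the interferon-inducible p200 family, whose products bind DNA in the cytoplasm and nucleus, had levels of -8.55, -6.48 and -8.17 in B10.BR and of 2.92, 2.92 and 2.98 in BALB.K. It was at least 559-fold higher in BALB.K, and its second probe, the one printed above, gave -7.79, -8.57 and -8.20 in B10.BR and 2.60, 2.58 and 2.78 in BALB.K. Both probes were thus at background on all B10.BR arrays. Jhy lay at -6.78, -6.12 and -6.70 in B10.BR against 1.53, 1.99 and 2.09 in BALB.K (-8.40 ± 0.28). Serpina3a, a serine protease inhibitor of a gene cluster on chromosome 12, was at least 58.8-fold higher in BALB.K, Ccnb1ip1, a regulator of meiotic crossing over, at least 48.9-fold, and Ugt8a, which makes the galactolipid of myelin, at least 73.7-fold. Itln1, a secreted lectin that binds microbial sugars, stood at -5.63, -5.67 and -5.35 in B10.BR and at 1.22, 1.81 and 1.76 in BALB.K (-7.14 ± 0.27). Npy, the neuropeptide Y precursor, was at least 25.0-fold higher in BALB.K. H60b, a ligand of the activating receptor NKG2D, had levels of -5.96, -6.33 and -7.99 in B10.BR and of -0.31, -0.41 and -0.36 in BALB.K (-6.40 ± 0.46), with B10.BR above background on 1 array only.

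**Figure D1:**
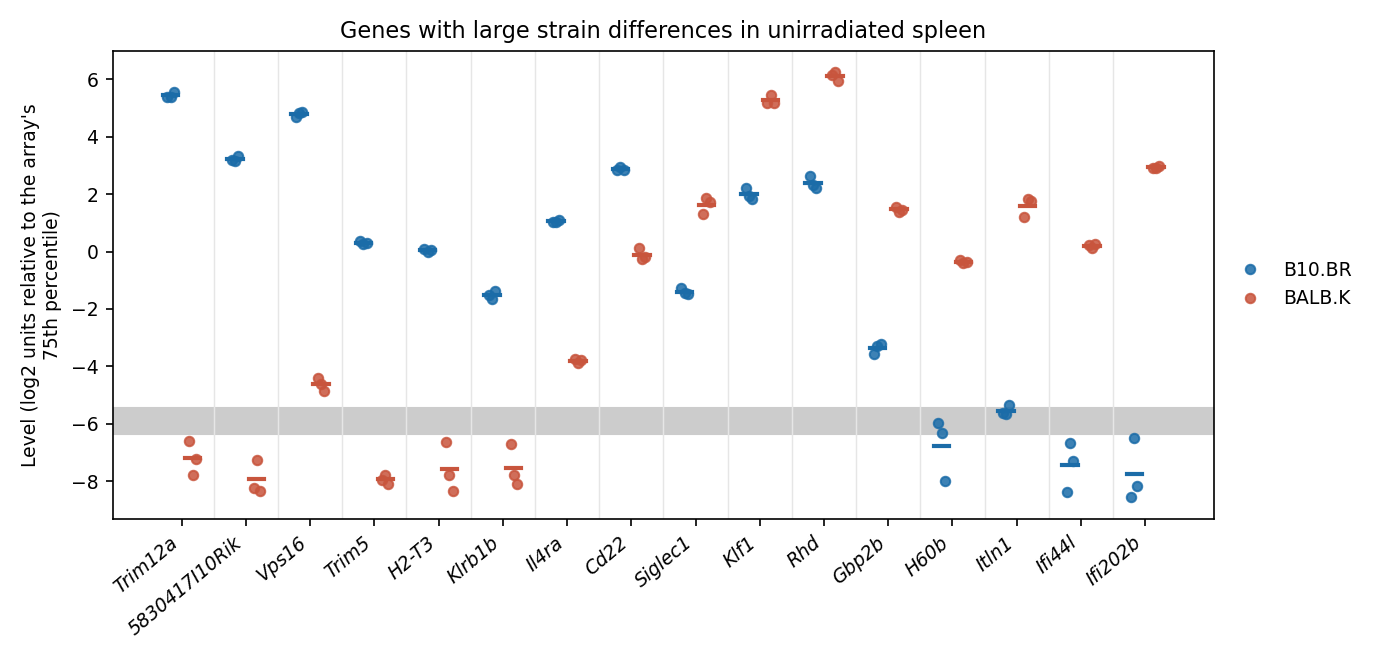
Level of 16 genes in unirradiated spleen, with 1 point per array, a bar at the mean of the 3 arrays of a strain, and the grey band marking the lowest levels still above background on the 6 arrays (-6.34 to -5.44). The 3 arrays of a strain lie close together in most genes; Trim12a, 5830417I10Rik, Trim5, H2-T3 and Klrb1b are at background in BALB.K, and Ifi44l and Ifi202b are at background in B10.BR.

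Of the 233 counted genes with signal in B10.BR only, 153 were also called higher in B10.BR at 300 cGy and 2 were called higher in BALB.K there. Of those with signal in BALB.K only, 113 of 234 were called higher in BALB.K at 300 cGy and 0 were called higher in B10.BR. A call at 300 cGy was made in 35.6% of all tested genes.

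Genes with more than 1 tested probe show how far a difference holds along a transcript. Among 6948 such genes, all probes were called in the same direction in 23.7%, some were called in a single direction in 45.0%, and none was called in 22.2%. In 636 genes (9.15%) at least 1 probe was called higher in B10.BR and another higher in BALB.K. Printed here are 3 of the 8 pairs with the widest gaps, the probe that was higher in B10.BR first, because they show 2 directions within 1 annotated gene.
Ints11 probe A, chr4:155263153-155263212, plus strand (mm9): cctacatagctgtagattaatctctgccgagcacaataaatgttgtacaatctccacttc
Ints11 probe B, chr4:155262735-155262794, plus strand (mm9): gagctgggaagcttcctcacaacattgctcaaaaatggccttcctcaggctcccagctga
Gcnt1 probe A, chr19:17400787-17400846, minus strand (mm9): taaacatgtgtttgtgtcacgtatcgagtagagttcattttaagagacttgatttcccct
Gcnt1 probe B, chr19:17403360-17403419, minus strand (mm9): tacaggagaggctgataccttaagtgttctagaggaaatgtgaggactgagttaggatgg
Arsk probe A, chr13:76198809-76198868, minus strand (mm9): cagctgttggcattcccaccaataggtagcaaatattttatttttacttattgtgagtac
Arsk probe B, chr13:76199926-76199985, minus strand (mm9): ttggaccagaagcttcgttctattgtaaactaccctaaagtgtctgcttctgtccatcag

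Ints11, the catalytic subunit of the Integrator complex that cuts nascent RNA, lay at 1.99, 2.01 and 2.17 in B10.BR and at -6.42, -6.43 and -7.55 in BALB.K with probe A, where all BALB.K arrays were at background, so that it was at least 229-fold higher in B10.BR. With probe B it lay at 2.13, 2.12 and 2.15 in B10.BR and at 2.72, 2.80 and 2.55 in BALB.K, a difference of -0.55 ± 0.12 whose call ended with median scaling and with slide as a fixed block. The strains did not overlap with either probe, and the direction turned between probes that lie close together on chromosome 4. Gcnt1, an enzyme that branches O-linked sugar chains, was at 3.00, 2.91 and 2.92 in B10.BR and at -3.71, -2.83 and -3.15 in BALB.K with probe A (6.17), but at -0.40, -0.51 and -0.46 in B10.BR and at 0.18, 0.16 and 0.22 in BALB.K with probe B (-0.64 ± 0.12). Arsk, a lysosomal sulfatase, gave 3.12 with probe A and -2.46 ± 0.11 with probe B. Serpina3f, another serine protease inhibitor of chromosome 12, gave 2.68 with one probe and -4.90 ± 0.12 with the other. At 300 cGy probe A of Ints11 was again called higher in B10.BR and probe B gave -0.53. The other pairs gave 5.42 and -1.10 for Gcnt1, 3.26 and -2.50 for Arsk, and 0.88 and -4.55 for Serpina3f. In each of these 4 genes the sign of either probe was the same in the separate mouse pools of that dose, though the 0.88 of Serpina3f did not pass. Slide and Y-linked signal also went largely with strain at 300 cGy.

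**Figure D2:**
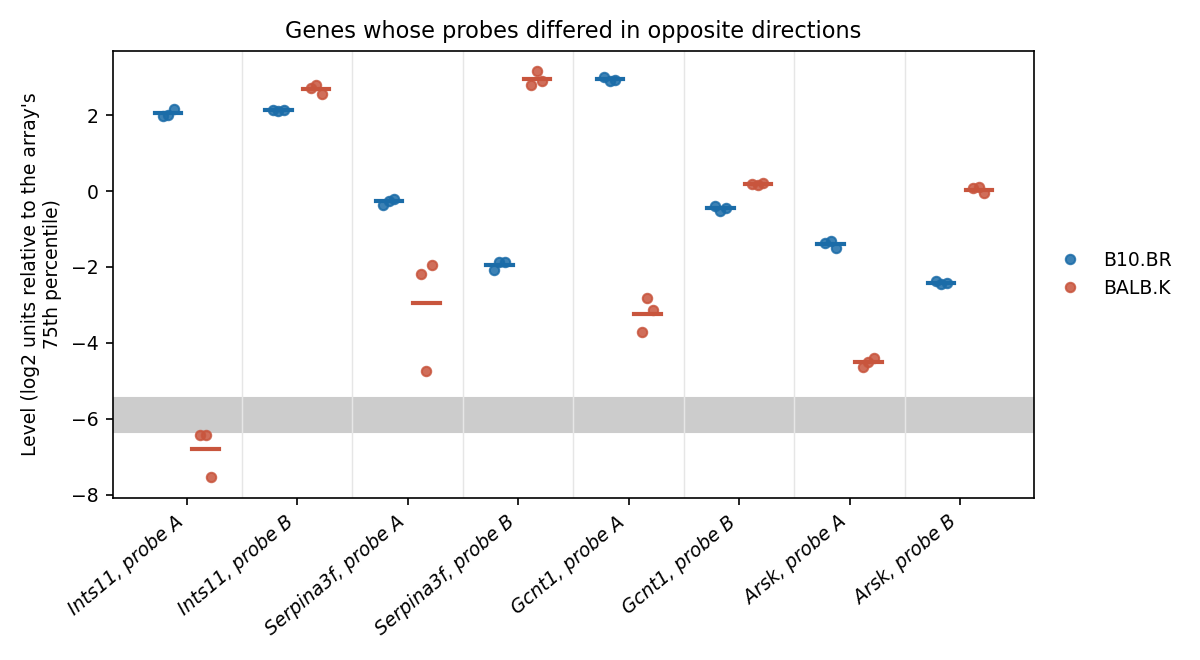
Level of the paired probes of 4 genes in unirradiated spleen, with 1 point per array, bars at the means and a grey band at the lowest levels still above background (-6.34 to -5.44). Probe A is higher in B10.BR and probe B is higher in BALB.K in each gene, with no overlap between the strains.

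The major histocompatibility complex is the region that the congenic strains share. Between the outermost probes of H2-K1 and H2-D1 on chromosome 17 (34133055 to 35403945, mm9) 120 probes were tested, and 9 of them (7.5%) passed at 2-fold or more. The share was 20.2% over all autosomal probes, 21.8% on the rest of chromosome 17, 22.4% in the 5 Mb before H2-K1 and 35.3% in the 5 Mb after H2-D1. Probes of the interval were brighter than most, and autosomal probes taken in the proportions of its levels had a share of 16.2%. Without the 2-fold limit the interval did not stand out, with 56.7% of its probes past the test against 54.5% of all autosomal probes. Those shares are a description, since neighbouring genes are not independent. Of the 53 such probes after H2-D1, 20 came from a single short stretch, described below. The 9 probes were those of Sapcd1 (1.32), Msh5 (1.05), Zbtb12 (1.02), Hspa1a (2.49), Hspa1l (-1.36) and Btnl1 (-1.64), 1 probe each of Prrt1 (-1.28) and Ddx39b (1.07), and a probe of a long intergenic noncoding RNA region (1.19). The brightest probes of Prrt1 (0.66) and Ddx39b (0.48) were within 2-fold. Hspa1a, the inducible heat shock protein 70, varied widely among pools, with levels of -2.50, 0.55 and 1.60 in B10.BR and of -0.55, -3.63 and -3.62 in BALB.K, so that the strains overlapped.

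The classical class I genes of the interval differed little. H2-K1, one of the molecules that present peptides to CD8 T cells, lay at 8.05, 8.13 and 8.21 in B10.BR and at 7.75, 7.69 and 7.65 in BALB.K (0.43 ± 0.094, adjusted p = 8.86e-04), and its second probe gave 0.77. H2-D1 was at 2.90, 3.13 and 3.09 in B10.BR and at 2.26, 2.44 and 2.15 in BALB.K (0.76 ± 0.16). B2m, the light chain that both need, is on chromosome 2 and went the other way, with 6.17, 6.20 and 6.13 in B10.BR and 6.58, 6.88 and 6.63 in BALB.K (-0.53 ± 0.10). The strains did not overlap in these 3 genes, and all 3 differences were within 2-fold. All 3 calls ended once slide entered as a fixed block, and H2-K1 turned to -0.25 with spike-in scaling. Of the 18 class I and peptide loading genes tested, 12 were higher and 3 lower in B10.BR, with a median of 0.49, and 0 of 18 reached 2-fold, where 19.9% of all genes did. H2-K1 and B2m are among the 5226 brightest genes, of which only 225 were at least 2-fold higher in B10.BR and 150 in BALB.K. The share at the levels of the 18 genes was not computed. Of the 13 class II presentation genes, 8 were higher and 0 lower, with a median of 0.34. Only Ctss among these reached 2-fold (1.84 ± 0.73). This protease of the class II pathway was at 6.56, 6.47 and 6.55 in B10.BR and at 6.12, 1.56 and 6.37 in BALB.K, where replicate 2 stood apart, and without that array the difference was 0.28.

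Beyond H2-D1 lie the genes of the Q, T and M regions, whose products present lipids or special peptides or bind innate receptors. H2-T3, the thymus leukemia antigen that binds CD8 alpha homodimers, lay at 0.07, -0.01 and 0.06 in B10.BR and at -6.64, -7.76 and -8.32 in BALB.K, at least 56.7-fold higher in B10.BR. H2-T24 was at -0.12, -0.19 and -0.08 in B10.BR and at 2.66, 2.82 and 2.63 in BALB.K (-2.83 ± 0.14), and H2-T9 differed by -1.44 ± 0.12. All 3 genes kept arrays of the strains apart. Of 18 nonclassical class I genes tested, 6 were higher and 4 lower in B10.BR, 1 and 2 of them by at least 2-fold, with a median of 0.025. Paralogs of this family share sequence, and the array can split or merge them. Farther out, between 39.5 and 40 Mb of chromosome 17, 20 of 24 probes differed at least 2-fold, which are 20 of the 53 such probes in the 5 Mb after H2-D1. All 20 lay between 5.8473 and 5.8526 Mb from H2-K1, around Rn18s and Rn18s-rs5 and in overlapping noncoding RNA regions. They therefore read a single short stretch and are not separate genes. Among them was that of Rn18s-rs5, a gene related to 18S ribosomal RNA, with levels of 6.14, 6.39 and 6.52 in B10.BR and of 4.39, 4.15 and 4.33 in BALB.K (2.06 ± 0.35).

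**Figure D3:**
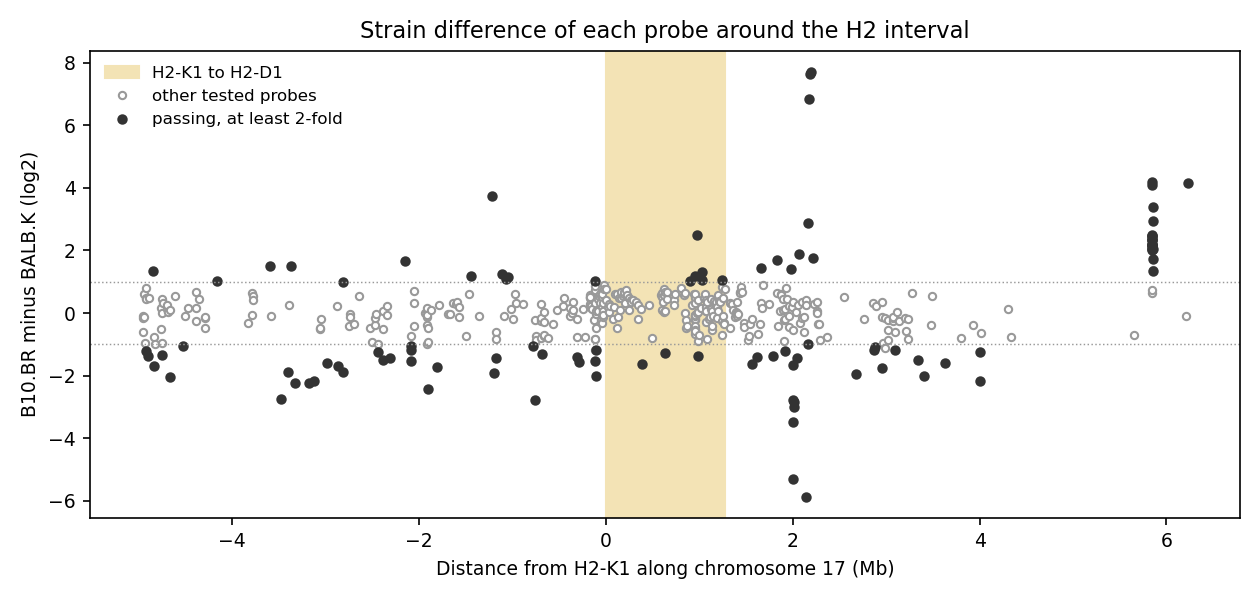
Strain difference of each tested probe on chromosome 17 from 5 Mb before H2-K1 to 5 Mb after H2-D1 against its distance from H2-K1 in Mb, with probes past the test and at least 2-fold filled, the span of H2-K1 to H2-D1 shaded and dotted lines at 2-fold. Of the 120 probes in the shaded span 9 are filled, and filled points reach farther from 0 in the 5 Mb after it, where 53 of 150 (35.3%) are filled. Of these 53, 20 lie in a single short stretch between 5.8473 and 5.8526 Mb.

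Lectin-like receptors of natural killer cells, which read class I molecules and their relatives on other cells and lie in a gene complex on chromosome 6, were mostly higher in B10.BR. Of 26 tested members 20 were higher and 4 lower, 13 and 1 of them by at least 2-fold, with a median of 1.08 (0.83 to 1.34 above the median of all genes over the alternative settings). Klra4, of the Ly49 family of inhibitory and activating receptors, lay at 2.47, 2.27 and 2.43 in B10.BR and at -0.78, -0.87 and -0.86 in BALB.K (3.23 ± 0.12). Klra6 was at -1.33, -1.50 and -1.49 in B10.BR and at -6.27, -5.80 and -5.72 in BALB.K (4.49 ± 0.26), where 1 of 3 arrays was above background. Klrb1b, an inhibitory receptor of the NKR-P1 family, was at least 19.2-fold higher in B10.BR with its brightest probe and at least 4.38-fold with another, and all 3 of its probes gave signal in B10.BR only. Klrd1, the CD94 chain that pairs with NKG2 receptors, stood at 3.08, 3.03 and 3.08 in B10.BR and at 0.90, 1.12 and 0.96 in BALB.K (2.07 ± 0.094). No array of one strain overlapped with the other in these 4 genes. Klra17 was the member at least 2-fold higher in BALB.K (-1.18 ± 0.16). The Ly49 genes differ in number and sequence among inbred strains, and near-identical copies can share a probe, so that values of single members are uncertain.

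General markers of natural killer and cytotoxic cells did not move as a block. Of 19 tested, 9 were higher and 2 lower in B10.BR with a median of 0.31, 4 and 1 of them by at least 2-fold. The largest of these differences was that of Klrd1 (2.07), which is also counted among the lectin-like receptors above. The summed signal of the list was 0.0551% to 0.0616% of an array in B10.BR and 0.0479% to 0.0518% in BALB.K. That of the lectin-like receptors was 0.0242% to 0.0270% in B10.BR and 0.00772% to 0.00877% in BALB.K. Prf1 (-0.12), Gzmb (0.11) and Eomes (-0.10), the pore former, a granule protease and a transcription factor of these cells, did not pass. Ncr1, the activating receptor NKp46, lay at -0.93, -1.18 and -1.28 in B10.BR and at 0.44, 0.65 and 0.64 in BALB.K (-1.71 ± 0.17), so that this marker was lower in B10.BR on all arrays. In spleen tissue, fewer cells of a type and less RNA per cell cannot be told apart, which holds for every cell type named here.

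The Ly6 family encodes small proteins tethered to the membrane of blood cells. Of 11 tested members 7 were higher and 2 lower in B10.BR, 5 and 1 by at least 2-fold. Ly6d, a mark of B lineage cells, had levels of 6.98, 7.02 and 7.31 in B10.BR and of 4.03, 3.55 and 4.25 in BALB.K (3.16 ± 0.17). Ly6e lay at 5.46, 5.39 and 5.45 in B10.BR and at 3.71, 3.99 and 3.78 in BALB.K (1.60 ± 0.11). Ly6a, the stem cell antigen Sca-1, whose level is known to depend on the Ly6 haplotype, was at 2.92, 2.92 and 2.90 in B10.BR and at 1.28, 1.62 and 1.71 in BALB.K (1.38 ± 0.22). In all 3 genes the B10.BR arrays were above all BALB.K arrays. Ly6i went the other way (-1.12 ± 0.19).

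Genes that interferons induce differed in both directions, gene by gene. Of 39 genes of the interferon response list 14 were higher and 10 lower in B10.BR, with a median of 0.080. Ifi44l, at -8.38, -6.65 and -7.29 in B10.BR and at 0.24, 0.12 and 0.25 in BALB.K, was at least 83.9-fold higher in BALB.K, and its neighbour Ifi44 differed by -2.50 ± 0.15. Trim30d (1.80 ± 0.15), Tor3a (1.68 ± 0.12) and Bst2 (1.42 ± 0.16), the tetherin that holds budding viruses at the cell surface, were higher in B10.BR. Of the 12 tested genes of the p200 family, 5 were higher and 4 lower. Ifi206 lay at 2.24, 2.29 and 2.36 in B10.BR and at -0.67, -1.12 and -0.34 in BALB.K (3.01 ± 0.27), and Ifi208 differed by 1.89 ± 0.13. Ifi213 (-2.37 ± 0.20) and Aim2 (-1.45 ± 0.14), the sensor of cytosolic DNA that builds an inflammasome, were lower, as was Ifi202b. All of these p200 genes kept the strains apart. Of 18 interferon-inducible GTPases 5 were higher and 8 lower. Gbp2b, a guanylate binding protein, stood at -3.56, -3.29 and -3.24 in B10.BR and at 1.56, 1.38 and 1.46 in BALB.K (-4.83 ± 0.24), and Gbp6 differed by 1.93 ± 0.26. Of 9 Schlafen genes Slfn2 was higher (1.03 ± 0.13) and Slfn3 (-1.38 ± 0.27), Slfn4 (-2.06 ± 0.21) and Slfn14 (-1.11 ± 0.32) were lower in B10.BR.

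Genes of red cell formation were lower in B10.BR. Of 32 tested erythroid genes 1 was higher and 25 were lower, 22 of them by at least 2-fold, against 13.4% of all tested genes, with a median of -1.23 (-1.33 to -1.04 relative to the median of all genes over the alternative settings). Klf1, the erythroid transcription factor that switches on adult globin and red cell membrane genes, lay at 2.22, 1.94 and 1.85 in B10.BR and at 5.17, 5.45 and 5.17 in BALB.K (-3.26 ± 0.29). Rhd, a membrane protein of the Rhesus complex, was at 2.65, 2.30 and 2.21 in B10.BR and at 6.14, 6.25 and 5.94 in BALB.K (-3.72 ± 0.31). Epor, the erythropoietin receptor, was at 3.68, 3.30 and 3.19 in B10.BR and at 4.93, 5.12 and 4.60 in BALB.K (-1.49 ± 0.15). The strains did not overlap in these 3 genes. Membrane skeleton genes such as Epb42 (-1.77) and Ank1 (-1.59), the blood group protein Kel (-1.76), the anion exchanger Slc4a1 (-1.20), the iron importer Tfrc (-1.10) and the heme synthesis enzyme Alad (-1.45) were lower too. The calls of Kel and Slc4a1 ended with slide as a fixed block, and that of Slc4a1 also with only the BALB.K pool that had Y-linked signal.

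Not all erythroid genes went this way. The globin genes Hba-a1 (-0.044), Hba-a2 (0.092) and Hbb-bt (0.11), which lie near the top of the signal range with Hba-a1 at 9.11, 9.22 and 9.17 in B10.BR and at 9.18, 9.31 and 9.14 in BALB.K, did not pass. Hemgn, a nuclear protein of erythroid precursors, was higher in B10.BR, at 6.73, 6.70 and 6.93 against 5.96, 5.98 and 6.10 in BALB.K (0.77 ± 0.19), a call that ended with spike-in scaling and with slide as a fixed block. The summed signal of the list was 0.600% to 0.640% of an array in B10.BR and 0.822% to 0.904% in BALB.K.

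The probe of Klf1, which gave signal well above background in both strains, and the promoter of Epor are printed because 22 of the 32 genes of their group were lower by at least 2-fold.
Klf1 probe, chr8:87428881-87428940, plus strand (mm9): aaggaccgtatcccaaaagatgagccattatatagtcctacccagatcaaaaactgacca
Epor promoter, chr9:21963527-21963826, minus strand (RefSeq, GRCm38.p6): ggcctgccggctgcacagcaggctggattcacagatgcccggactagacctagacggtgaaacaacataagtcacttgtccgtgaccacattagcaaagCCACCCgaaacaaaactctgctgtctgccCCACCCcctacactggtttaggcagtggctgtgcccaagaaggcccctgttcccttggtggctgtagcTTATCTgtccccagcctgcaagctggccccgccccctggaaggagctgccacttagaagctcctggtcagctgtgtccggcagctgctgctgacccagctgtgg
Capitals in the promoter, which runs from 250 bases before to 50 bases after the gene's start, mark the letters AGATAA and CCACCC on either strand, the cores bound by GATA factors and by factors of the Klf1 family. Of 24 erythroid genes matched to a promoter by symbol, 10 (41.7%) held AGATAA, against 11.4% of all 27025 promoters of this length, and 14 (58.3%) held CCACCC, against 30.9%. A match of letters is a description and not a binding site.

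Genes of the cell cycle were lower in B10.BR as a group. Of 25 tested proliferation genes 1 was higher and 24 were lower, 13 of them by at least 2-fold, with a median of -1.10 (-1.10 to -0.71 relative to the median of all genes over the alternative settings). Mki67, the Ki-67 antigen of cycling cells, lay at 5.84, 5.61 and 5.65 in B10.BR and at 6.83, 7.20 and 6.79 in BALB.K (-1.24 ± 0.16). Ccnb2, a B-type cyclin of mitosis, was at 4.12, 3.83 and 3.82 in B10.BR and at 5.34, 5.67 and 5.32 in BALB.K (-1.52 ± 0.15). Cdc6, which loads replication origins, was at 0.06, -0.16 and -0.34 in B10.BR and at 1.62, 2.33 and 1.60 in BALB.K (-2.00 ± 0.21). The strains did not overlap in these 3 genes. Ttk (-2.00), Ccnb1 (-1.52), Kif11 (-1.42), Bub1 (-1.37) and Plk1 (-1.18) of mitosis and Mcm5 (-1.21), Tk1 (-1.12), Tyms (-1.11) and Rrm2 (-1.10) of DNA synthesis were lower. The exception was Mcm3, a replicative helicase subunit, at 0.31 ± 0.13 with overlapping arrays (adjusted p = 0.0495). The summed signal of the list was 0.139% to 0.171% of an array in B10.BR and 0.285% to 0.355% in BALB.K. Erythroid and proliferation genes were thus both lower in B10.BR, and their part in each other's difference was not tested.

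The promoter of Ccnb2 is shown because cell cycle genes moved together, with capitals at TTTGAA, the core of the cell cycle genes homology region, and at CCAAT on either strand.
Ccnb2 promoter, chr9:70421505-70421804, minus strand (RefSeq, GRCm38.p6): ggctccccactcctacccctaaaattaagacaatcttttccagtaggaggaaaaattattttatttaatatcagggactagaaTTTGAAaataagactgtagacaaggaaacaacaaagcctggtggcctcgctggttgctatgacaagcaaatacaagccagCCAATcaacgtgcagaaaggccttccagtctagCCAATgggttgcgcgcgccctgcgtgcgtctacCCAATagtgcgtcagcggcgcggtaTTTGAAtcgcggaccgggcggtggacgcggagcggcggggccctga
Of 23 proliferation genes matched by symbol, 11 (47.8%) held TTTGAA, against 18.1% of all promoters, and 19 (82.6%) held CCAAT, against 37.9%.

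Immediate early genes, which cells switch on within minutes of a stimulus, were higher in B10.BR, and varied among its pools. Of 16 immediate early and heat shock genes 13 were higher and 0 lower, 9 of them by at least 2-fold, with a median of 1.17. The summed signal of the list overlapped, at 0.0581% to 0.114% of an array in B10.BR and 0.0534% to 0.0850% in BALB.K. Fos, a subunit of the AP-1 transcription factor, lay at -1.60, 0.61 and 1.77 in B10.BR and at -2.24, -2.90 and -2.90 in BALB.K (2.94 ± 0.69). Jun, its partner, was at 2.92, 3.75 and 4.57 in B10.BR and at 2.30, 1.92 and 1.56 in BALB.K (1.82 ± 0.30), and Nr4a1, a nuclear receptor induced by antigen receptor signals, at 4.89, 5.45 and 6.13 in B10.BR and at 4.13, 3.55 and 3.77 in BALB.K (1.67 ± 0.21). Replicate 1 of B10.BR was the lowest and replicate 3 the highest of its strain in all 3 genes, and B10.BR stayed above BALB.K. The call of Jun ended with slide as a block, and that of Fos with only the BALB.K pool that had Y-linked signal.

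**Figure D4:**
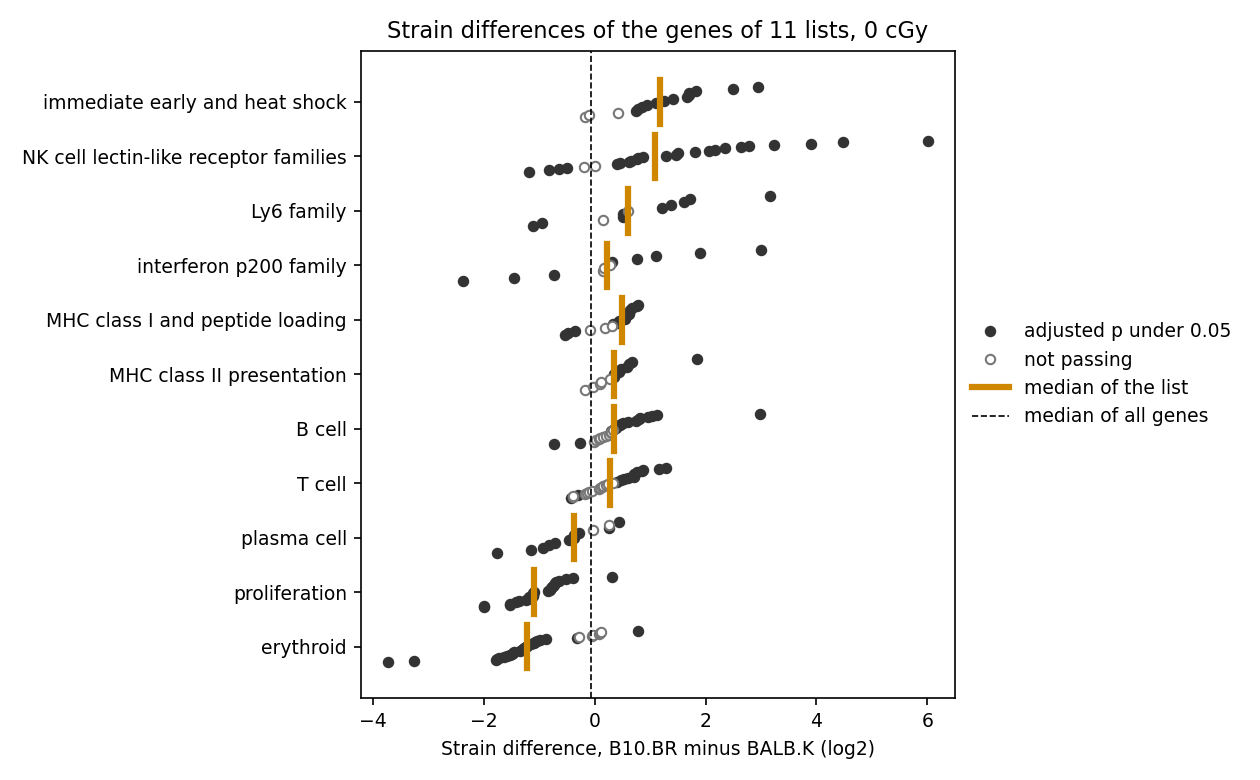
Strain difference of each tested gene of 11 lists in unirradiated spleen, with genes past the test filled, an orange bar at the median of a list and a dashed line at the median of all genes (-0.067). Ifi202b of the p200 family, at -10.67, lies outside the axis. Erythroid and proliferation genes lie mostly to the left of the dashed line, and NK cell lectin-like receptors and immediate early genes mostly to the right.

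Lymphocyte markers differed by small amounts. Of 28 T cell genes 13 were higher and 2 lower in B10.BR with a median of 0.28, and of 27 B cell genes 15 were higher and 2 lower with a median of 0.34. Only Lef1 (1.29 ± 0.15) and Cd3d (1.17 ± 0.17) among T cell genes, and Cd22, Vpreb3 (1.13 ± 0.12) and Ebf1 (1.03 ± 0.10) among B cell genes, reached 2-fold. Lef1 and Ebf1 are transcription factors of their lineages, Cd3d is a chain of the T cell receptor complex, and Vpreb3 is a chaperone of the B cell receptor. Cd3e (0.20), a common marker of T cells, did not pass. With spike-in scaling the calls of Cd3d and Ebf1 ended.

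Plasma cell genes, which serve antibody secretion, differed mostly by small amounts. Of 13 plasma cell genes 2 were higher and 9 lower in B10.BR, with a median of -0.38 (-0.46 to -0.061 relative to the median of all genes over the alternative settings). At 2-fold or more 2 of 13 (15.4%) were lower, against 13.4% of all tested genes, and the summed signal of the list was 0.0629% to 0.0670% of an array in B10.BR and 0.101% to 0.111% in BALB.K. Ell2, an elongation factor that favours secreted antibody mRNA, lay at 0.92, 0.84 and 0.66 in B10.BR and at 2.40, 2.73 and 2.58 in BALB.K (-1.77 ± 0.17). Derl3, of the degradation pathway of the endoplasmic reticulum, differed by -1.15 ± 0.12, Tnfrsf17, the survival receptor BCMA, by -0.93 ± 0.12, and Jchain, which joins IgM and IgA, by -0.72 ± 0.084. All 4 genes kept the strains apart. Mzb1 (0.26) and Pdia4 (0.43) passed in the other direction, but the call of Mzb1 ended in 11 of the 22 alternative settings, that of Pdia4 ended with slide as a fixed block and with only the BALB.K pool that had Y-linked signal, and both turned sign with spike-in scaling.

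Probes described in the files as immunoglobulin were counted at both large antibody loci, a choice made after their values were seen. At the kappa light chain locus (chromosome 6, 65 to 72 Mb) 78 such genes were tested, with 1 higher and 63 lower in B10.BR, 59 of these by at least 2-fold, and a median of -1.58. Their median level was -0.50, -0.51 and -0.65 in B10.BR and 1.38, 1.08 and 1.17 in BALB.K. At the heavy chain locus (chromosome 12, 114 to 118 Mb) 9 of 79 were higher and 37 lower, with a median of -0.73. The probe named Igkc, for the constant region, did not pass (-0.27 ± 0.22). A bright probe without a symbol near the end of the locus (70676692) did pass, at -0.61 ± 0.088. It lay at 7.43, 7.52 and 7.44 in B10.BR and at 8.03, 8.17 and 8.01 in BALB.K. The probe named Igkc alone therefore does not settle whether the constant region differed. Variable segments differ in sequence among inbred strains, and many share sequence with each other, so that a probe can read several.

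Markers of macrophages and granulocytes differed in both directions. Of 25 macrophage genes 6 were higher and 10 lower in B10.BR. Siglec1, the sialic acid receptor of marginal metallophilic macrophages, was at -1.27, -1.43 and -1.48 in B10.BR and at 1.32, 1.85 and 1.72 in BALB.K (-3.02 ± 0.20). Gpnmb (2.98 ± 0.34), a glycoprotein of stressed macrophages, and Cd5l (1.36 ± 0.18), a product of tissue macrophages, were higher, and Cd68 did not pass (-0.13). Of 23 neutrophil genes 2 were higher and 5 lower. Chil3, a chitinase-like protein, lay at 4.60, 4.46 and 4.54 in B10.BR and at 1.97, 2.06 and 2.18 in BALB.K (2.46 ± 0.32), whereas the stefin A genes Stfa1 (-3.69 ± 0.28), Stfa2l1 (-2.55 ± 0.20) and Stfa2 (-2.22 ± 0.54), cysteine protease inhibitors in a cluster of near copies on chromosome 16, were lower. With slide as a fixed block Stfa2 stood at -0.11 and its call ended, as it did with only the BALB.K pool that had Y-linked signal. S100a8, an abundant neutrophil protein, did not pass (-0.48). Of 14 dendritic cell genes 8 were higher and 0 lower, with Clec10a (1.87 ± 0.13) and Cd209a (1.29 ± 0.13), both C-type lectins, at 2-fold or more besides Ly6d. The summed signal of the dendritic list was 0.127% to 0.139% of an array in B10.BR and 0.0803% to 0.0855% in BALB.K. This sum includes the bright Ly6d, described above as a mark of B lineage cells. The summed signal of the Ly6 family, which also holds Ly6d, was 0.0795% to 0.0846% in B10.BR and 0.0185% to 0.0287% in BALB.K. The part of Ly6d in the dendritic sum was not tested. The platelet chemokine Pf4 stood at 0.010, and of 18 megakaryocyte genes 15 did not pass.

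Receptors of myeloid cells that come in activating and inhibitory pairs were split, with 9 of 30 higher and 12 lower in B10.BR. Cd300ld (2.52 ± 0.086) and Sirpb1a (2.19 ± 0.11) were higher, and Lilra5 (-2.30 ± 0.14) and Pira2 (-1.78 ± 0.11) lower. Of 27 innate pattern receptors 4 were higher and 11 lower, with Tlr4, the lipopolysaccharide receptor, at 0.30, 0.15 and 0.23 in B10.BR and at 1.47, 1.49 and 1.56 in BALB.K (-1.28 ± 0.12). Nod1, a sensor of bacterial cell walls, was at 5.16, 5.14 and 5.21 in B10.BR and at 4.45, 0.57 and 4.38 in BALB.K, where replicate 2 stood apart. Its difference was 2.04 ± 0.60 and it was 0.75 without that array. Of 25 genes of T helper polarization, for which these backgrounds are known to differ, 8 were higher and 10 lower in B10.BR. At 2-fold or more 2 were higher and 4 lower. The largest difference was that of Il4ra (4.85), described above, whose second probe did not pass. Il4, the leading cytokine of type 2 responses, lay at -3.15, -3.41 and -3.20 in B10.BR and at -2.51, -2.32 and -1.79 in BALB.K (-1.05 ± 0.17). Havcr1, which encodes Tim-1, differed by -1.94 ± 0.33. Of 29 genes of chemokines and their receptors 9 were higher and 4 lower, 3 and 1 of them by at least 2-fold. The eosinophil chemokine Ccl24 differed by -2.44 ± 0.16.

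Genes known from other tissues gave signal that differed between arrays. The 25 genes of the exocrine pancreas on the array held 0.000936% to 0.00383% of the signal in B10.BR, with 20 to 23 above background, and 0.148%, 0.0237% and 0.00558% in replicates 1, 2 and 3 of BALB.K, with 24 to 25 above background. The median difference of the 24 tested ones was -4.11, yet 23 of 24 did not pass, and trypsinogen Prss1 lay at -8.41, -5.28 and -4.23 in B10.BR and at 1.70, -1.32 and -3.99 in BALB.K. The remaining gene, Try5, passed at -5.12, a call that ended in 13 of the 22 alternative settings and turned to 1.69 with slide as a fixed block. That block rests here on the B10.BR 500 cGy pools. In these the pancreas genes held 0.00181% and 0.00959% of the signal in replicates 1 and 2, on one slide, and 0.219% in replicate 3, on the other. Of 10 adipocyte genes Retn (4.38 ± 0.51), Cfd (2.48 ± 0.71) and Cidea (2.03 ± 0.27) were higher and Lpl lower (-2.20 ± 0.17) in B10.BR. Retn, the hormone resistin, was at 1.48, 1.59 and 1.61 in B10.BR and at -2.61, -2.26 and -3.58 in BALB.K, while Adipoq, the defining fat hormone, did not pass (1.58, adjusted p = 0.0512). The summed signal of the list overlapped, at 0.00850% to 0.0110% in B10.BR and 0.00975% to 0.0112% in BALB.K. The source of this signal and its part in other differences were not tested.

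Genes of the radiation response were compared at rest. Of 25 p53 targets 13 were higher and 3 lower in B10.BR, with a median of 0.38. In all 64% passed, against 55.8% of all tested genes. At 2-fold or more 4 were higher and 0 lower (16%), against 19.9% of all tested genes. Only 2 of the called targets were called in the same direction at 300 cGy. Cdkn1a, the kinase inhibitor p21 that p53 induces, lay at -1.76, -1.71 and -1.62 in B10.BR and at -1.98, -2.24 and -2.27 in BALB.K (0.47 ± 0.10). Its second probe gave -1.37 and passed too, so that its probes were called in opposite directions. The count of targets takes the first, brighter probe. Mdm2, the ligase that degrades p53, was at 4.24, 4.27 and 4.48 in B10.BR and at 3.93, -0.84 and 3.92 in BALB.K. Replicate 2 of BALB.K stood apart here too: the difference was 1.99 ± 0.75 (adjusted p = 0.0308) with that array and 0.41 without it. Ccng1 (-0.20) and Bax (0.11) did not pass, and Trp53 itself differed by -0.49 ± 0.12, a call that ended with median scaling and with slide as a fixed block. Prkdc, the catalytic subunit of the DNA-dependent protein kinase, in which the BALB/c background carries a hypomorphic variant, lay at -0.55, -0.59 and -0.67 in B10.BR and at -0.13, 0.04 and -0.19 in BALB.K (-0.51 ± 0.20, adjusted p = 0.038), a call that ended when any 1 of the 6 arrays was left out. Cdkn2a, a tumour suppressor locus that also has a known BALB/c variant, was at -0.55, -0.61 and -0.37 in B10.BR and at 0.93, 1.05 and 1.12 in BALB.K (-1.55 ± 0.13), and its second probe gave -2.29. The strains did not overlap in Cdkn1a at the first probe, in Prkdc or in Cdkn2a.

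Of 32 DNA repair genes 5 were higher and 12 lower in B10.BR. In all 53.1% passed, against 55.8% of all tested genes, and 6.25% did so at 2-fold or more, against 19.9%. Among the genes that passed, Blm (-1.36 ± 0.17) and Brca1 (-1.18 ± 0.22), whose call ended with slide as a fixed block, differed most, and both act in repair by homologous recombination. At 300 cGy Brca1 was called in the opposite direction (0.99). Of 30 glutathione and oxidative stress genes 5 were higher and 9 lower. The glutathione transferases Gstm1 (-1.24 ± 0.14) and Gstm6 (-1.52 ± 0.19) and the quinone reductase Nqo1 (-1.19 ± 0.11) were lower, and Gsta2 was at least 2.66-fold higher in B10.BR, with signal in that strain only.

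Along the autosomes, 442 windows of 5 Mb held at least 20 tested probes, and the median share of probes past the test at 2-fold or more was 19.4%. The shares were highest on chromosome 6 at 65 to 70 Mb (50.8% of 118 probes), which holds the kappa locus, on chromosome 6 at 130 to 135 Mb (48.9% of 92), which holds the Ly49 genes, and on chromosome 2 at 85 to 90 Mb (47.6% of 63). Chromosome 1 at 175 to 180 Mb, which holds the p200 family, had 39.8% of 93.

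The pools of mice at 300 cGy are separate samples, taken 24 hours after irradiation. The B10.BR arrays at 300 cGy lay on the same slide as those at 0 cGy, and the BALB.K arrays on other slides, so that slide and strain cannot be told apart there either. Ddx3y gave signal on every B10.BR array at 300 cGy, but in BALB.K only on replicate 1 (2.37, against -8.31 and -8.62). Sex and strain therefore cannot be fully told apart at that dose either. Of the 14574 genes called at 0 cGy, 6766 (46.4%) were called in the same direction at 300 cGy and 272 in the opposite one. With slide as a fixed block 1474 genes were called in the same direction at both doses. Larger differences were found again more often: 3171 of 5204 (60.9%) at 2-fold or more, 950 of 1235 (76.9%) at 4-fold or more with 0 in the opposite direction, and 273 of 309 (88.3%) at 8-fold or more. The strain difference itself changed between the doses in 12.2% of all tested genes by the interaction test.

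Gene groups differed in this respect. Of the NK cell lectin-like receptors, 21 of the 24 called at 0 cGy were called in the same direction at 300 cGy, Klra4 with 3.37. Of the 26 called erythroid genes 20 were, Klf1 with -3.75 and Rhd with -5.72, while Epor stood at -0.13. Of the 25 called proliferation genes 1 was: at 300 cGy Mki67 differed by 0.14, Ccnb2 by 0.13 and Cdc6 by -0.19, none of which passed, and Top2a, a topoisomerase of dividing cells, by 1.02. The change in the strain difference passed the interaction test for Mki67 (1.38 ± 0.22), Top2a (1.76) and Plk1 (1.88). Of the 13 called immediate early genes 4 were called again. Fos differed by 0.0087 and Nr4a1 by 0.20 at 300 cGy. Ly6e and Ly6a, higher in B10.BR at rest, stood at 0.19 and -0.36 at 300 cGy and did not pass there.

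**Figure D5:**
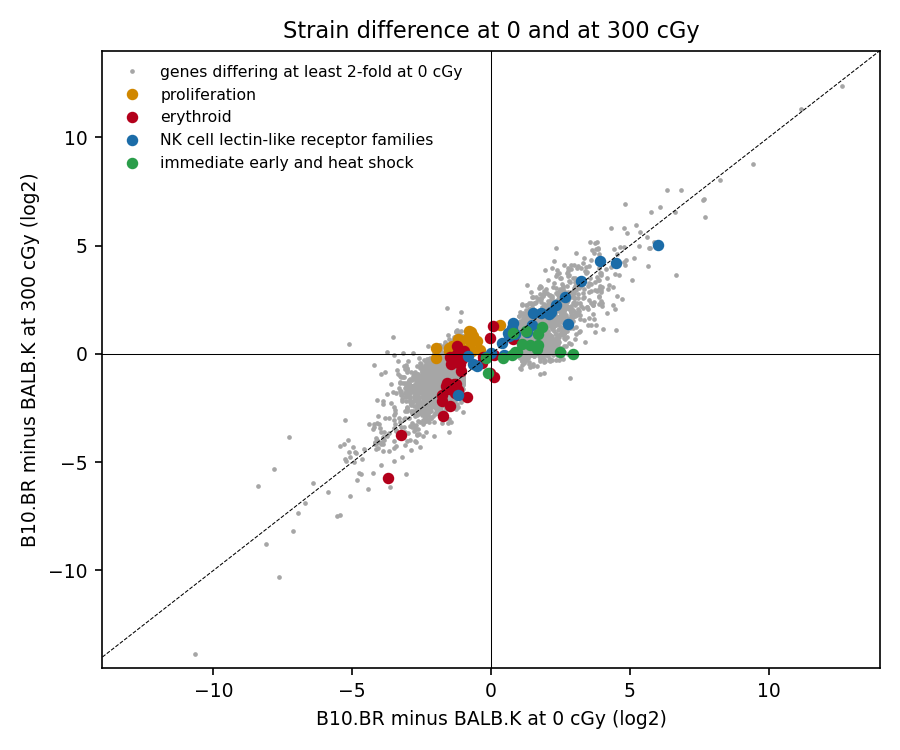
Strain difference at 300 cGy against that at 0 cGy, both in log2 units, with a grey point for each gene past the test at 2-fold or more at 0 cGy, coloured points for all tested genes of 4 lists and a dashed line of equality. Large differences lie along the line, whereas proliferation genes, all but Mcm3 negative at 0 cGy, lie near or above 0 at 300 cGy.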

How the data were processed

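RNA of 24 spleen pools was hybridised, labelled with Cy3, to Agilent mouse arrays of 60-base probes. The intensity values used are the processed signals that the authors deposited per array, which Agilent Feature Extraction 10.5.1.1 had corrected for background, per the file headers; no normalization between arrays had been applied. The deposited matrix of processed values, centred within strains, was not used. From the processed signals, log2 values were taken and each array was scaled to its 75th percentile over non-control probes. Spots with outlier flags (95 to 218 per array of the 6) were left out, spots of a probe were averaged, and no non-control spot was saturated. Probe coordinates are those of the files (mm9).

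Autosomal probes well above background on all 3 arrays of either unirradiated group were tested (36790). Group means over all 24 arrays were fitted in limma 3.58.1 (R 4.3.3) with lmFit and eBayes, which left 16 residual degrees of freedom. P-values are two-sided and Benjamini-Hochberg adjusted over all tested probes, with calls at 0.05. A gene is its probe with the highest mean over the 6 arrays. Labels name separate pools, so p-values measure the spread between pools. In simulated data for this comparison (36790 probes) 72 of 100 changes of 1 log2 unit and 91 of 100 of 2 were called, with 6 unchanged probes called. All other simulated probes had no strain difference, whereas 54.5% of the real probes were called. The simulated noise was independent between arrays, without effects of slide or sex. Those counts are therefore not the error rates of the real calls.

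Genes to name were picked by a rule: the 15 largest differences per direction with separate arrays, up to 10 genes with signal in 1 strain per direction, up to 4 called members per list and every tested member of lists under 20 genes, the 8 widest opposite probe pairs, and leading genes of windows. Tlx1, Igkc, Prss1, Klra2, Klra17, Tor3a, Bst2, Il4, Nqo1, Rn18s-rs5, some genes of the H2 interval and many erythroid and proliferation genes fall outside it and were named after their values were seen. Not every gene that the rule picks is named in the text, and some lists are not described. The comparison, its lists and its members were chosen with earlier results of these data known. Replicate numbers did not pair the strains: same-numbered arrays deviated together with correlations of 0.089, 0.19 and 0.044. Alternatives covered scaling, background correction, filters, slide, Y-linked signal, the replicate block and each array left out.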

Additional observations from a re-analysis of the deposited data

Results flagged for a closer look

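The strain difference was compared between 300 and 0 cGy by the interaction term of the limma fit, over all tested genes, and the values below are the difference at 300 cGy minus that at 0 cGy, each from 3 arrays per strain and dose and each past an adjusted p of 0.05. Among cell cycle genes the change was 1.38 for Mki67, 1.88 for Plk1 and 1.76 for Top2a. Plk1, a mitotic kinase, differed by 0.70 at 300 cGy and by -1.18 at 0 cGy, so that its direction turned. Among erythroid genes the change was 1.36 for Epor, whose difference was close to 0 at 300 cGy, and -1.99 for Rhd, whose difference was wider there. It was -1.74 for Ly6a and -1.41 for Ly6e. For Gbp6, an interferon-inducible GTPase, it was -2.25, with a difference of -0.32 at 300 cGy and of 1.93 at 0 cGy. Klra2, a Ly49 receptor, changed by -1.39 and was higher in B10.BR at both doses, by 1.40 at 300 cGy and by 2.79 at 0 cGy. The change of the immediate early gene Nr4a1 was -1.47. The interaction did not pass for Klf1 (-0.49) or Klra4 (0.14). At 300 cGy the genes of the exocrine pancreas held 0.0624% to 0.858% of the signal in B10.BR and 0.0351% to 1.21% in BALB.K, and their part in these changes was not tested.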

How the results depend on the processing

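Scaling moved the counts in opposite ways. Median scaling gave 11106 genes higher in B10.BR and 4635 higher in BALB.K, with 3286 and 2181 at 2-fold or more and 14 such probes in the H2 interval. Spike-in scaling gave 1078 and 16761 genes, with 10070 at 2-fold or more (632 and 9438), 20 probes in the H2 interval and 265 genes with opposite probes. It also turned the sign of Bax (-0.58), Cdkn1a (-0.22), Ddx39b (-0.20), H2-K1 (-0.25), Hba-a2 (-0.59), Mcm3 (-0.38), Mzb1 (-0.42), Pdia4 (-0.25), Pf4 (-0.68), Prrt1 (-0.028), Cd3e (-0.49), Gzmb (-0.57) and Hbb-bt (-0.58), of which Bax, Pf4, Hba-a2, Cd3e, Gzmb and Hbb-bt had not passed. Background correction by normexp, which raises dim signals, gave 2497 genes at 2-fold or more (1042 and 1455), 3 probes in the H2 interval and 1748 genes found again at 300 cGy. The fit of the 6 arrays alone gave 416 genes with opposite probes.

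For the slides compared at 0 cGy, slide as a fixed block rests on the B10.BR 500 cGy group alone. Its replicate 3 lay on the slide of BALB.K at 0 cGy, and its replicates 1 and 2 on that of B10.BR. A difference between slides and one between these pools therefore cannot be told apart. The BALB.K 300 cGy group also spans slides, but not the slide of B10.BR at 0 cGy. The fit with this block left 5523 genes (2102 and 3421), 3353 at 2-fold or more (1085 and 2268), 5 probes in the H2 interval and 102 genes with opposite probes. It left 1474 and 1147 genes called the same way at 300 cGy without and with the 2-fold limit. Of the 5204 genes at 2-fold or more, 3115 were still called in the same direction and 0 in the opposite one, while Try5 turned to 1.69. Of 154 named genes, 29 calls ended: those of B2m, Brca1, Cfd, Ctss, Ddx39b, Gsta2, H2-D1, H2-K1, Havcr1, Hemgn, Hspa1a, Ints11, Jun, Kel, Kif11, Mcm3, Mdm2, Mzb1, Nod1, Pdia4, Prkdc, Prrt1, Rn18s-rs5, Slc4a1, Slfn3, Stfa2, Top2a, Trp53 and Zbtb12. As a random block slide gave 417 genes with opposite probes. With Y-linked signal as a covariate the H2 interval had 5 probes. With only the BALB.K pool that had such signal 4983 genes were higher in BALB.K, the H2 interval had 3 probes at 2-fold or more, 299 genes had opposite probes, and Serpina3f stood at 1.92, from its other probe. There 14 calls of named genes ended, those of Cdkn1a, Cfd, Fos, Hspa1a, Hspa1l, Mzb1, Pdia4, Prkdc, Slc4a1, Slfn3, Stfa2, Tlx1, Top2a and Try5. The mean of a gene's probes gave 0.33 for Arsk, -0.45 for Cdkn1a, 2.76 for Gcnt1, 4.15 for Ints11 and -0.31 for Prrt1.

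Leaving out 1 of the 6 arrays gave 12457 to 15121 called genes, 4627 to 6293 at 2-fold or more and 6 to 8 probes in the H2 interval. Gcnt1 lay between -0.67 and 6.37 there, since another of its probes then had the highest mean, as it did with normexp (5.35) and with the single BALB.K pool (6.65). Replicate numbers are shared by the strains but do not pair them, and the fit with the replicate block gave 14696 called genes and 5192 at 2-fold or more. It ended the call of Try5, as 12 other settings did, and added one of Adipoq. All other counts stayed within 1.5 times the reported ones. Signal near background limits the dimmest genes.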
